A study of Mus musculus with 6 samples.

Results

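Cycling lung fibroblasts (FBs) were taken here as the single-cell barcodes of fibroblast type in bleomycin-treated mouse lung that carried transcripts of Mki67 and Top2a, and 51 barcodes met this rule. A barcode marks 1 droplet of a single-cell RNA library, and a unique molecular identifier (UMI) marks 1 captured transcript. A barcode counted as an FB when it held at least 2000 UMIs, none of Ptprc, Pecam1 or Epcam (the genes that mark leukocytes, endothelium and epithelium) and at least 3 UMIs of Col1a1, Col1a2 and Pdgfra together, and as cycling when it also held at least 2 UMIs of Mki67 and Top2a together. The rule gave 21 of 797 FB barcodes after a single dose of bleomycin and 30 of 5280 after repetitive bleomycin, of 11752 barcodes in those 2 libraries and 33286 in the series. The barcodes were thus selected on the UMIs of Mki67, Top2a, the collagens and Pdgfra, and the values of these genes below are a description.

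The mice carried the Pdgfra-GFP reporter, in which the Pdgfra gene drives green fluorescent protein, and GFP+ cells were sorted from lung, so that FBs without the reporter lie outside these data. In the single-dose experiment bleomycin, a drug that injures the lung and leads to fibrosis, or 50 ul of PBS was given once into the oropharynx and lungs were taken on day 14. The labels give the single dose of bleomycin both as 2 U/kg and as 4 U/kg. In the repetitive experiment 1, 1 and 0.5 U/kg of bleomycin, or PBS, were given once a week, and lungs were taken 2 weeks after the last of the 3 doses. Each library pooled the cells of 3 mice and each condition had 1 library, so no test between conditions, or between groups of barcodes, was possible, and every interval below covers counting error only.

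Cells that divide pass through S phase, in which DNA is copied, and through G2 and mitosis, in which chromosomes condense, attach to the spindle and separate. Genes of both phases are switched on in turn. E2F factors act on genes for DNA replication at the entry to S phase, and the MuvB complexes with B-Myb and FOXM1 act later on genes for mitosis, many of which hold a CHR element with neighbouring CCAAT boxes in their promoters. Mki67 encodes the Ki-67 protein that coats mitotic chromosomes, and Top2a encodes the topoisomerase that untangles DNA. In injured lung, FBs divide as the tissue scars, and Cthrc1 marks the FBs that make most fibrillar collagen.

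The promoters of both genes of the rule and of 4 other genes are shown because they hold the letters by which the promoters of both phases differ. Each is a RefSeq window of 300 bases around the start of the gene on GRCm38.p6, written 5′ to 3′ along the gene, and capitals mark matches on either strand, joined where they overlap. The CHR element was searched as TTTGAA and the CCAAT box by its letters. An E2F site was searched as TTCCCGC and, with other letters in the middle, as TTGGCGC, then also as TTCGCGC and lastly also as TTGCCGC. Ube2c encodes the ubiquitin-conjugating enzyme of the anaphase-promoting complex, Cdk1 the mitotic kinase, and Mcm5 and Mcm6 subunits of the replicative helicase.
Mki67, chr7:135716330-135716629, minus strand: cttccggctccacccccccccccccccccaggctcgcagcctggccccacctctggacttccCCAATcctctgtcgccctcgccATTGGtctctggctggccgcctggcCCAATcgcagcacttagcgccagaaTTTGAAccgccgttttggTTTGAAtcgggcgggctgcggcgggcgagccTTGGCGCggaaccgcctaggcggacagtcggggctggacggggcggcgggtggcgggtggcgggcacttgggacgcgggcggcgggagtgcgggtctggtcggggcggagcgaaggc
Top2a, chr11:99024140-99024439, minus strand: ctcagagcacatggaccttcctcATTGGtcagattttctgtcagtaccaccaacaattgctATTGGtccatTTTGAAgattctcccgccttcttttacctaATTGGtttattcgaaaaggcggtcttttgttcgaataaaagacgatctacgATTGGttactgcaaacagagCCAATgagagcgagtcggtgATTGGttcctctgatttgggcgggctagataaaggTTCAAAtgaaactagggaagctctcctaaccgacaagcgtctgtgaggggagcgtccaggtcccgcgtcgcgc
Ube2c, chr2:164769679-164769978, plus strand: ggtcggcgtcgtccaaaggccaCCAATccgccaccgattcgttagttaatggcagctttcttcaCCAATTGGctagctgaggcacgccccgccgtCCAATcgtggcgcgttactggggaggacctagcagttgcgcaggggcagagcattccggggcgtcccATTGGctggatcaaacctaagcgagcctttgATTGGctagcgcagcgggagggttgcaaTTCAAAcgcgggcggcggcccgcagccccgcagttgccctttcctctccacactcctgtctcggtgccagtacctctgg
Cdk1, chr10:69352863-69353162, minus strand: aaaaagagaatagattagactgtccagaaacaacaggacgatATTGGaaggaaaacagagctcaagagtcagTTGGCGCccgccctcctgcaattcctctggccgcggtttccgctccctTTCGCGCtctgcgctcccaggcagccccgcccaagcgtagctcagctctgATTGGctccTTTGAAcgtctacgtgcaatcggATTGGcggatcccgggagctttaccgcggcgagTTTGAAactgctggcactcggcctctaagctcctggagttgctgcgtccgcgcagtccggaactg
Mcm5, chr8:75109259-75109558, plus strand: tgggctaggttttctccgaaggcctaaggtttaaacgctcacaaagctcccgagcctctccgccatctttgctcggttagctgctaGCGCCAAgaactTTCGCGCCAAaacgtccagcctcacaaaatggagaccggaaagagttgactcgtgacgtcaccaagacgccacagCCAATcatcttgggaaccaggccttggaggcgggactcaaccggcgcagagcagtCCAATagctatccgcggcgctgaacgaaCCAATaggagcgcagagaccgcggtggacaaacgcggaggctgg
Mcm6, chr1:128359656-128359955, minus strand: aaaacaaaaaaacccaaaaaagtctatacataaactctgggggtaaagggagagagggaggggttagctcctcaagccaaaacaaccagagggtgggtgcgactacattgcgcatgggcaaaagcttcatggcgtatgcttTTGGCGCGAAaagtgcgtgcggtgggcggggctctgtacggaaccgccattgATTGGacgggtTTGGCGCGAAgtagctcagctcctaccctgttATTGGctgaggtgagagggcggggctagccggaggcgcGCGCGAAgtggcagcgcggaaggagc

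The Mki67 window held 2 CHR elements, 3 CCAAT boxes and 1 E2F site, and the Top2a window held 2 CHR elements and 6 CCAAT boxes with no E2F match. No CHR element was found in the windows of Mcm5 and Mcm6, which held 3 and 5 E2F matches. Over the gene lists used below, a CHR element was found in 62.2% of 37 windows of G2/M genes and 18.2% of 33 windows of S phase genes, against 11.7% of the windows of all genes compared in both libraries and 17.9% of all 32851 windows. For the E2F letters the shares were 16.2% for G2/M genes and 69.7% for S phase genes, against 17.1% of compared genes and 9.57% of all windows. CCAAT boxes were found in 78.4% and 69.7% of the windows of the 2 lists, against 37.4% of all windows. The windows of Birc5 and of the S phase gene Tk1, both described below, held no match to any of these letters, and that of Rrm2, another S phase gene, held 1 E2F match and 1 CCAAT box. A match is a description of the letters alone.

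The 4 lung libraries held 7201081 to 68354458 UMIs in 1015 to 10737 barcodes, and 4 to 26 barcodes per library met the Mki67 and Top2a rule but carried Ptprc. In the repetitive bleomycin library 97 barcodes reached 2 UMIs of Mki67 and Top2a before any other part of the rule was applied. The repetitive PBS and bleomycin libraries shared 28 barcode sequences, none of them cycling, and 1 cycling barcode of the single-dose bleomycin library also stood in the repetitive PBS library. With barcodes found in a single lung library, each share of cycling barcodes stayed within its counting interval.

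The cycling FBs were deep barcodes. They held a median of 23398 UMIs (10800 to 97492) after a single dose and 26041.5 UMIs (2088 to 79450) after repetitive dosing, whereas all FB barcodes of the same libraries held medians of 11594 and 8370 UMIs. The repetitive barcodes included 8 shallow ones of 2088 to 3655 UMIs. Their mitochondrial share was low, with medians of 2.60% and 2.88% and no barcode above 7.57%. Depth differed between the groups compared below, and its part in the results was not tested beyond the depth-matched and thinned values given beside them.

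Most of the cycling FBs, though not all, carried the rest of the cell cycle programme. Levels are given as CPM, in which UMIs are scaled to a common depth. The summed level of an S phase list and a G2/M list, of 39 genes each and without Mki67 and Top2a, had a median of 6288 CPM in the single-dose barcodes and 6180 CPM in the repetitive barcodes, against 314 and 326 CPM in non-cycling FB barcodes. It lay above the 99th percentile of the non-cycling barcodes (1505 and 1388 CPM) in 19 of 21 and 23 of 30. The 23 include the 4 shallow barcodes with at least 10 UMIs of myeloid markers that are described below, most of which held fewer FB than myeloid marker UMIs. At the edge of the rule, 2 of 4 and 4 of 9 barcodes with exactly 2 UMIs of Mki67 and Top2a lay above that level, and so did 1 of 17 and 13 of 57 barcodes with 1 UMI, which the rule left out. All 6 single-dose and all 14 repetitive barcodes with at least 10 UMIs of both genes lay above it. A barcode with none of these UMIs reached 14158 CPM in the repetitive library, so the rule also left out at least 1 barcode with a high level.

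Under the same gate few cycling FBs were found after PBS. The single-dose PBS library held 0 of 841 FB barcodes, which allows a share of up to 0.357% by a floor of 3 counts (0.438% by the upper bound of the exact 95% interval), and the repetitive PBS library held 3 of 5096, or 0.0589% (0.0121 to 0.172, exact 95% interval). The single-dose bleomycin library held 2.63% (1.64 to 4.00) and the repetitive bleomycin library 0.568% (0.384 to 0.810). The repetitive bleomycin share includes 4 shallow barcodes with at least 10 UMIs of myeloid markers, described below. The share thinned to 5000 UMIs, given below, leaves them out together with all other barcodes under 5000 UMIs. No full-depth share that leaves out these 4 alone is given. Among FB barcodes with at most 2 UMIs of immune lists, a limit that leaves out deep barcodes, the single-dose bleomycin share was 0.982% (5 of 509). Of the 3 repetitive PBS barcodes, 1 carried 16 UMIs of Mki67, 29 of Top2a, 17 of Birc5 and 17 of Ube2c and had 14087 CPM of the S phase and G2/M genes. The other 2 carried 2 UMIs of Top2a each, none of Mki67, Birc5 or Ube2c, and 297 and 557 CPM of the S phase and G2/M genes, which was below the 99th percentile of that library (1041 CPM). The contrast depended on the genes that defined cycling. With at least 2 UMIs of Birc5, Ube2c, Cdk1 and Ccnb2 in place of Mki67 and Top2a, the shares were 0.595% and 0.785% in the single-dose and repetitive PBS libraries and 7.03% and 1.33% in the bleomycin libraries.

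The order of the 2 bleomycin libraries differed between settings. Each thinned set is a single random draw, whose own spread the intervals do not cover. In the draw to 2000 UMIs, 1 of 797 single-dose barcodes (0.125%, 0.00318 to 0.697) and 15 of 5280 repetitive barcodes (0.284%, 0.159 to 0.468) passed. The order was turned around in that draw, with overlapping intervals. The repetitive cycling FBs included shallow barcodes of 2088 to 3655 UMIs, which a draw to 2000 UMIs thins less than the single-dose ones, all of at least 10800 UMIs. Among these shallow barcodes were the 4 with at least 10 UMIs of myeloid markers. The part of the shallow barcodes in this order was not tested. Thinned to 5000 UMIs, with shallower barcodes left out, 10 of 710 (1.41%, 0.677 to 2.57) and 12 of 3368 (0.356%, 0.184 to 0.622) passed. The share with any UMI of either gene at 2000 UMIs kept the order of full depth, at 1.25% after a single dose and 0.777% after repetitive dosing. It was 0 of 841 and 0.137% in the PBS libraries. Both bleomycin libraries thus stood above their PBS libraries at each depth, except that the single-dose intervals overlapped at 2000 UMIs, and no order between the 2 bleomycin libraries was read from these shares.

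**Figure D1:**
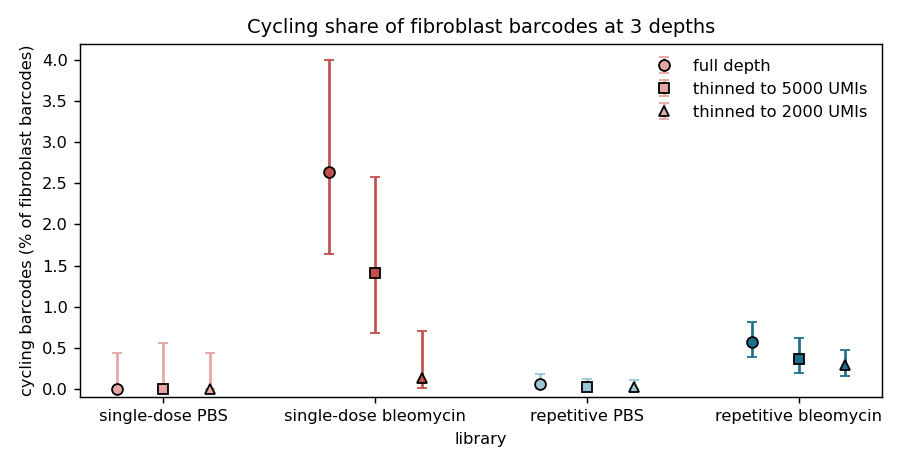
Share of FB barcodes that met the cycling rule (percent, vertical axis) in each lung library, at full depth (circles) and thinned to 5000 (squares) or 2000 UMIs (triangles), with exact 95% intervals for counting error. At full depth the single-dose bleomycin library stood at 2.63% and the repetitive bleomycin library at 0.568%. In a single random draw to 2000 UMIs they stood at 0.125% and 0.284%.

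The genes of the rule varied widely among the cycling FBs. Mki67 ranged from 0 to 13 UMIs (median 4) in the single-dose barcodes and from 0 to 55 (median 2.5) in the repetitive barcodes, and Top2a from 0 to 26 (median 2) and 0 to 93 (median 3.5). Birc5, which encodes the survivin subunit of the chromosomal passenger complex, was found in 19 of 21 and 22 of 30 barcodes, at most 44 and 40 UMIs. Ube2c was found in 16 and 17 barcodes, at most 73 and 116 UMIs. Summed over barcodes, Birc5 stood at 345 CPM in both libraries, against 3.70 and 1.33 CPM in non-cycling FBs without Cthrc1. Ube2c stood at 463 and 745 CPM, against 2.84 and 0.499 CPM. Neither marker was used by the rule, and both were far above the non-cycling level in either library.

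By UMIs more of the cycling FBs leaned to G2/M than to S phase, and this lean rested on the scale of the lists. In 14 of 21 single-dose and 17 of 30 repetitive barcodes the G2/M list had more UMIs than the S phase list, in 7 and 11 the S phase list had more, and 2 repetitive barcodes were equal. Among the single-dose barcodes the G2/M list ranged from 36.5 to 12982 CPM and the S phase list from 262 to 5018 CPM, and among the repetitive barcodes from 0 to 17579 and from 284 to 5825 CPM. By the construction of this split the G2/M level was higher on its G2/M side, and the levels are given as a description. Single-dose barcodes with more G2/M UMIs held 6232 CPM of that list and 1007 CPM of the S phase list, and the others held 804 and 2562 CPM. Repetitive barcodes with more G2/M UMIs held 11187 and 1638 CPM, and the others 1160 and 2680 CPM. The lists differ in their own level, and when each was divided by its mean the counts that leaned to G2/M were 11 of 21 (52.4%, 29.8 to 74.3) and 11 of 30.

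**Figure D2:**
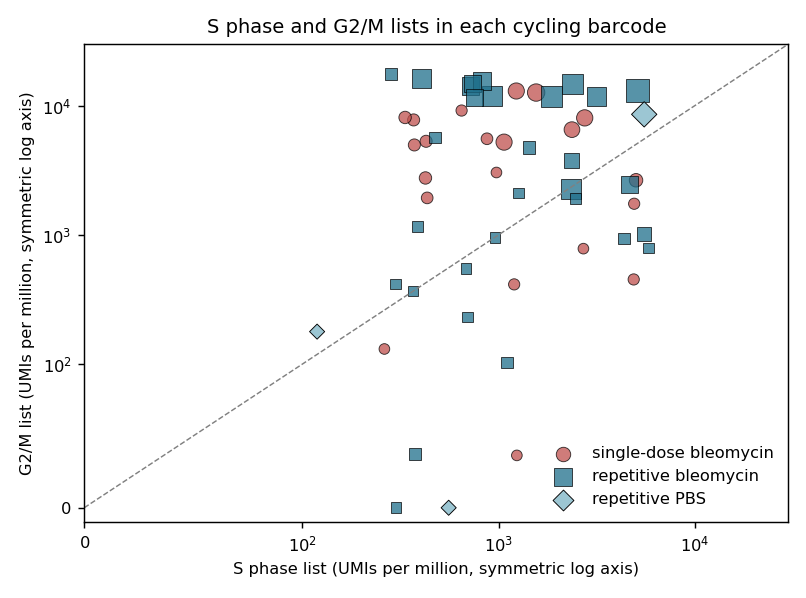
Summed S phase list (horizontal) and G2/M list (vertical) in each cycling barcode, in CPM on symmetric log axes. Circles are single-dose bleomycin, squares repetitive bleomycin and diamonds the 3 repetitive PBS barcodes; symbols grow with the UMIs of Mki67 and Top2a, and the dashed line marks equal levels, with 14 of 21 and 17 of 30 bleomycin barcodes above it.

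To describe the programme as a whole, UMIs were summed over the cycling FBs and over 2 groups of non-cycling FBs of the same library, those without Cthrc1 (622 and 4845 barcodes) and those with it (137 and 348 barcodes). Levels are CPM of the summed UMIs, ratios are log2 ratios after adding 1 CPM, which understates the ratio of genes near 0, and a gene was called higher or lower past a log2 ratio of 1 in size. Genes were compared where the mean CPM of both groups was at least 10. A gene near 0 in non-cycling FBs passes this filter only when it is high in cycling FBs. Counts of higher genes on cell cycle lists are thus partly set by the filter and are a description. Against non-cycling FBs without Cthrc1, 10.6% of 8112 genes were higher and 7.56% lower in the single-dose library, and 12.3% of 9125 were higher and 8.67% lower in the repetitive library. Against those with Cthrc1 the shares were 9.41% and 5.48%, and 11.4% and 6.8%. The median of all genes lay between 0.11 and 0.13 in all 4 comparisons, and both comparisons of a library share the same cycling barcodes. In both libraries 493 of 7310 genes were higher and 222 were lower than in non-cycling FBs without Cthrc1, and 109 of the 124 genes on cell cycle lists were among the 493.

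**Figure D3:**
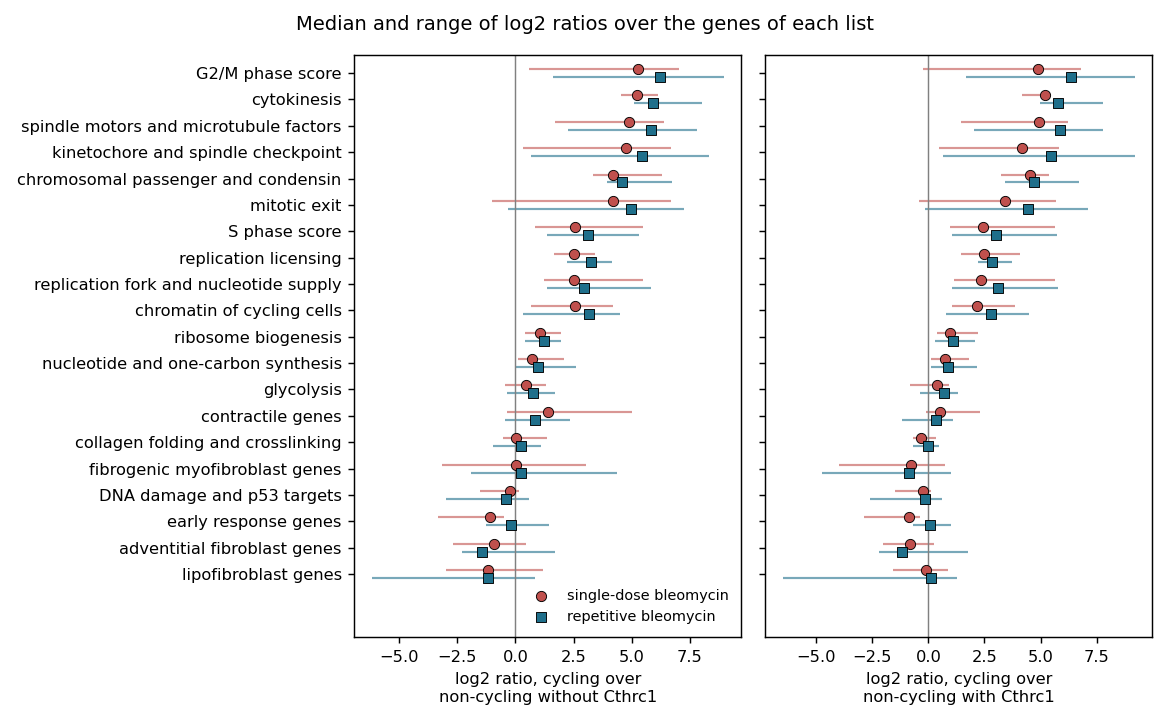
Median (symbols) and range (lines) of log2 ratios over the compared genes of 20 lists, cycling over non-cycling FBs without Cthrc1 (left) and with Cthrc1 (right), with single-dose bleomycin as circles and repetitive bleomycin as squares. Lists of mitosis had medians above 4 in the left panel, and the lipofibroblast list stood left of 0 (-1.15 and -1.19) in the left panel and near 0 (-0.12 and 0.12) in the right panel.

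Genes of mitosis differed most. Of the G2/M list, 36 of 37 and 38 of 38 compared genes were higher, with medians of 5.26 and 6.21. The kinetochore list, which links chromosomes to the spindle, had 13 of 15 and 16 of 17 genes higher (medians 4.73 and 5.46). Its highest member was Cenpf, at 130 CPM against 0.284 in the single-dose library and 585 CPM against 0.811 in the repetitive library, and its lowest was Zwint, at log2 ratios of 0.34 and 0.69. Spindle motors and microtubule factors were higher in 16 of 16 and 18 of 18 (medians 4.86 and 5.81), from the spindle protein gene Hmmr at 6.40 and 7.81 to the tubulins Tubb5 at 1.69 in the single-dose and Tuba1b at 2.25 in the repetitive library. The chromosomal passenger and condensin list had 7 of 7 and 8 of 8 higher, with Aurkb, the kinase of that complex, at 77.8 and 96.7 CPM. All 6 cytokinesis genes were higher in both, among them Prc1, which bundles the midzone spindle, at 130 and 594 CPM. The mitotic exit list had 5 of 6 higher, and its exception was the securin gene Pttg1, at log2 ratios of -0.99 and -0.31.

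The genes that drive and restrain the cycle were less uniform. Among cyclins and their kinases 8 of 11 were higher in either library. Ccnb1, the mitotic cyclin, stood at 183 CPM against 0.427 and at 200 CPM against 0.291, and Cdk1, whose printed window held both CHR elements and E2F letters, at 204 CPM against 3.27 and at 374 CPM against 0.874. Among the D cyclins, which start the cycle, Ccnd1 was higher (1.96 and 1.46) whereas Ccnd2 (-0.58 and -0.09) and Ccnd3 (0.14 and 0.34) did not pass the limit. Of the transcription factors, Foxm1 was at 51.9 CPM against 1.99 and at 43.9 CPM against 0.832, and E2f1 at log2 ratios of 2.18 and 1.11. Of the list of CDK inhibitors 4 of 8 genes were higher and 2 lower after a single dose, and 3 of 6 higher and 1 lower after repetitive dosing. Cdkn3, a phosphatase that peaks in dividing cells (4.92 and 5.63), and Cdkn2d (1.94 and 2.35) were higher in both, and Cdkn1c was lower in both (-2.16 and -1.46) on 3 and 14 UMIs. Cdkn1a, the p53 target p21, was lower after a single dose (128 against 311 CPM, -1.28) and near equal after repetitive dosing (259 against 294 CPM, -0.18). The list of p53 targets held no higher gene in either library and 1 of 11 and 3 of 14 lower ones, where 7.56% and 8.67% of all genes were lower, with medians of -0.22 and -0.39 and Trp53inp1 lowest at -1.52 and -2.99.

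Genes of DNA replication were higher with smaller ratios. Of the 39 genes on the S phase list 28 and 30 passed the filter on level, and 27 and 30 of these were higher (medians 2.57 and 3.11). Of the 12 genes on the licensing list, which loads the helicase, 10 and 8 passed the filter on level, and all of these were higher (medians 2.54 and 3.26). Among them was Mcm5, whose printed window held E2F letters and no CHR element, at 40.8 CPM against 4.12 and at 37.7 CPM against 1.21. All 18 compared genes of the 20 on the replication fork list were higher in both libraries (medians 2.53 and 2.96). Rrm2, the ribonucleotide reductase subunit, stood at 94.5 and 61.5 CPM and thymidine kinase Tk1 at 100 and 85.4 CPM. Of the chromatin list 9 of 10 were higher, with Hmgb2, an abundant DNA-bending protein, at 589 CPM against 49.1 and at 758 CPM against 37.7, and the histone variant H2afz at 1973 CPM against 299 and at 1772 CPM against 185. H2afz was found in 21 of 21 and 29 of 30 cycling FBs, and no barcode held more than 14.1% of its UMIs.

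Genes that feed growth were higher to a lesser degree. Ribosome biogenesis had 10 of 13 and 9 of 13 genes past the limit (medians 1.05 and 1.24), led by Nop58, a core protein of small nucleolar ribonucleoproteins, at 1.98 and 1.96. In nucleotide and one-carbon synthesis 3 of 10 and 6 of 12 were past it, led by the mitochondrial folate enzyme Mthfd2 at 2.07 and 2.59. In glycolysis 1 of 14 and 4 of 14 were past it (medians 0.47 and 0.75), with Gapdh at 1.33 and 1.70 in the 2 libraries. These shares stood above the 10.6% and 12.3% of all genes, apart from that of glycolysis in the single-dose library, which was 1 gene.

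The genes on no list with the highest ratios in both libraries included Pclaf, Pbk, Knstrn, Mxd3, Neil3, Ska1 and Sapcd2. Pclaf, which binds PCNA at replication forks, stood at 235 CPM against 0.995 and at 183 CPM against 0.686, and it was found in 18 and 19 barcodes. Knstrn and Ska1 act at kinetochores and Neil3 is a DNA glycosylase. The 8 lowest were Sorl1, Galnt15, Brinp1, Wnt4, Abca8b, Pik3ip1, Dpep1 and Ecm2. Dpep1, a membrane dipeptidase, stood at 46.3 CPM against 307 and at 67.8 CPM against 292, and the ligand gene Wnt4 at 3.71 CPM against 52.2 and at 6.28 CPM against 34.0.

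Genes of lipofibroblasts (LipoFBs), the alveolar FBs that store lipid, were lower in the cycling FBs than in non-cycling FBs without Cthrc1. In each library 17 of 26 were lower past the limit, with medians of -1.15 and -1.19, where 7.56% and 8.67% of all genes were lower. Inmt, a methyltransferase gene of alveolar FBs, stood at 352 CPM against 2036 in the single-dose library and at 252 CPM against 1510 in the repetitive library. Inmt also stood at 692 and 403 CPM in barcodes with at least 2 Ptprc UMIs, above its level in the cycling FBs. It was found in 81.8% and 40.3% of those barcodes, which passed no FB or doublet filter, so free RNA and shared droplets cannot be told apart there. The source of the Inmt UMIs in the cycling FBs was not tested, and they were not read as expression. The transcription factor gene Tcf21 stood at 104 CPM against 232 and at 91.7 CPM against 202, and the carboxylesterase gene Ces1d at 187 CPM against 542 and at 148 CPM against 481. Lrat, the enzyme of retinoid storage, was at log2 ratios of -1.94 and -3.83 on 9 and 5 UMIs. Plin2, which coats lipid droplets, did not pass the limit (-0.66 and 0.08), and the highest members of the list were Prkg2 at 1.19 after a single dose and Car2 at 0.86 after repetitive dosing.

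Against non-cycling FBs with Cthrc1 the LipoFB list stood near 0, with medians of -0.12 and 0.12. In the single-dose library 0 of 25 genes were higher and 1 lower, where 9.41% of all genes were higher and 5.48% lower. In the repetitive library 4 were higher and 4 lower, where the shares of all genes were 11.4% and 6.8%. Npnt, a matrix ligand of alveolar FBs, stood at 369 CPM in cycling, 363 CPM in Cthrc1-bearing and 700 CPM in other non-cycling FBs of the single-dose library. In the repetitive library these levels were 532, 249 and 1100 CPM. In barcodes with at least 2 Ptprc UMIs Npnt stood at 170 and 358 CPM, and the 249 CPM of the Cthrc1-bearing FBs lay below the repetitive value. Npnt was found in 63.6% and 37.2% of those barcodes, so this level did not stand in every one of them, and its source was not tested. Igfbp3, which binds insulin-like growth factors, was found in 3 of 21 single-dose and in 0 of 30 repetitive cycling FBs, which by a floor of 3 counts allows a share with a UMI of up to 10%. It was found in 9.09% and 7.5% of barcodes with at least 2 Ptprc UMIs. In non-cycling FBs of the PBS libraries without Cthrc1, Inmt stood at 9168 and 4694 CPM.

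Per barcode, the summed LipoFB list ran from 752 to 15487 CPM in the single-dose cycling FBs (median 4800). For each cycling barcode, 3 non-cycling barcodes of nearest UMI count were taken in either group. The deepest cycling FBs, of 97492 (single-dose) and 79450 UMIs (repetitive), had no match of like depth. Matched barcodes without and with Cthrc1 reached 37264 and 44892 UMIs after a single dose, and 57193 and 65315 after repetitive dosing. The single-dose median of the summed list was 8132 CPM in the matched barcodes without Cthrc1 and 3656 CPM in those with it. In the repetitive library the medians were 6370, 12956 and 5261 CPM. The groups overlapped widely in both libraries, and cycling barcodes lay between the 2 matched groups by their medians. Whether fewer LipoFBs divided or dividing LipoFBs held less of these transcripts cannot be told apart.

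**Figure D4:**
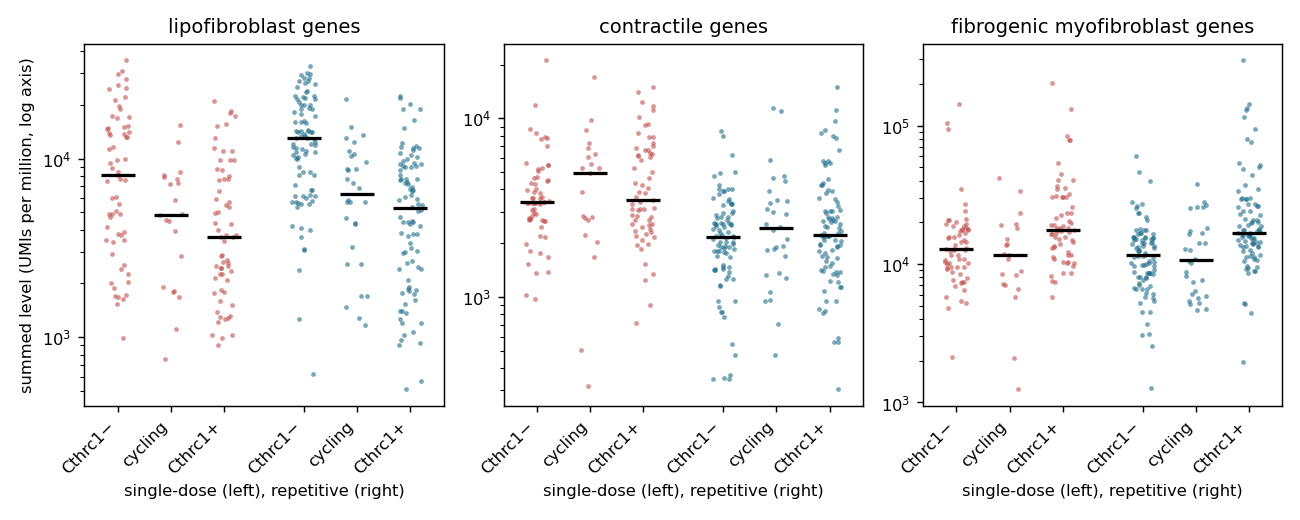
Summed level of LipoFB, contractile and fibrogenic genes in each barcode (CPM, log axis) for cycling FBs and depth-matched non-cycling FBs without (Cthrc1−) and with Cthrc1 (Cthrc1+), single-dose on the left and repetitive on the right of each panel. Black bars are medians; for LipoFB genes they stand at 8132, 4800 and 3656 CPM in the single-dose library and at 12956, 6370 and 5261 CPM in the repetitive library.

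Genes of adventitial FBs, which line vessels and airways, were lower as well. Against non-cycling FBs without Cthrc1, 5 of 12 were lower after a single dose and 9 of 13 after repetitive dosing (medians -0.92 and -1.42), where 7.56% and 8.67% of all genes were lower, and against those with Cthrc1 the medians were -0.80 and -1.18. Decorin (Dcn), a small matrix proteoglycan, stood at 702 CPM against 1385 and at 839 CPM against 3138. Clec3b, which encodes tetranectin, stood at log2 ratios of -1.84 and -2.29. The list was not uniform, since the alarmin gene Il33 was at 0.48 in the single-dose and -1.54 in the repetitive library and Dpp4 was the 1 higher gene of the latter (1.72).

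Fibrogenic genes lay on both sides of the level of non-cycling FBs. Of the list of 20 genes, which names myofibroblast (MyoFB) genes of fibrotic lung, 5 of 17 were higher and 1 lower after a single dose and 6 of 16 higher and 2 lower after repetitive dosing against non-cycling FBs without Cthrc1, where 10.6% and 12.3% of all genes were higher. Against those with Cthrc1, 5 of 17 and 9 of 19 were lower, where 5.48% and 6.8% of all genes were, and 0 and 1 were higher. The medians were 0.01 and 0.23 against the former and -0.79 and -0.87 against the latter. With FB barcodes that held at most 2 UMIs of immune lists, the single-dose median against the former was -0.78. The BMP antagonist gene Grem1 was highest against the former (3.05 and 4.37), and 1 barcode held 54.5% and 43.2% of its UMIs in the cycling FBs. Col3a1 stood at 3283 CPM against 5518 and 6206 in the single-dose library, and at 3354 CPM against 4975 and 6126 in the repetitive library. Col1a1, which belongs to the rule, stood at 2550 CPM against 2487 and 5779, and at 2561 CPM against 2534 and 5392. Tgfb1, the ligand that drives FBs to make matrix, was at 1.31 and 1.84 against FBs without Cthrc1, and the proteoglycan gene Aspn was lowest at -3.15 and -1.89. Postn, the matricellular gene periostin, was found in 5 of 21 and 3 of 30 cycling FBs, against 6.06% and 2.19% of the shallower barcodes with at least 2 Ptprc UMIs. It stood at 68.6 and 8.79 CPM, against 7.39 and 7.91 CPM in those barcodes, so its repetitive level was near theirs. Against FBs with Cthrc1 the log2 ratios of Postn were -1.71 and -4.74. Genes for folding and crosslinking collagen lay near 0 (medians 0.03 and 0.25), with 1 of 16 past the limit in either library. Per barcode, the summed fibrogenic list had medians of 11557 CPM in cycling FBs and of 12778 and 17724 CPM in depth-matched FBs without and with Cthrc1 after a single dose, and of 10687, 11574 and 16877 CPM after repetitive dosing, so the cycling FBs lay nearer to those without Cthrc1.

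Spp1, the osteopontin gene of scar MyoFBs, was spread unevenly. It was found in 21 of 21 single-dose cycling FBs at 2 to 511 UMIs (median 8) and in 15 of 30 repetitive cycling FBs at up to 751 UMIs. Of barcodes with at least 2 Ptprc UMIs, which can hold macrophages that make Spp1 themselves, 93.9% and 33.8% held it, at 4301 and 3462 CPM, so low Spp1 counts in the cycling FBs were not read as expression. Of the 15 repetitive barcodes, 4 were shallow ones with myeloid markers, at 4 to 21 Spp1 UMIs. Summed, it stood at 2177 and 2933 CPM against 2527 and 507 in non-cycling FBs without Cthrc1 and 9330 and 9233 in those with it. Of the Spp1 UMIs in the cycling FBs, a single barcode held 43.5% in the single-dose library and 32.1% in the repetitive library. Barcodes that did not lean to G2/M held more of it, 5268 against 1102 CPM and 4519 against 1884 CPM, and the single barcode with most Spp1 in each library was among them.

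Contractile genes were higher after a single dose, and 1 barcode held much of their UMIs in the cycling FBs. The list had 8 of 12 genes higher past the limit after a single dose and 3 of 10 after repetitive dosing (medians 1.41 and 0.85), where 10.6% and 12.3% of all genes were higher. Per barcode, the median of the summed list was 4959 CPM in the single-dose cycling FBs, against 3400 and 3468 CPM in the matched barcodes without and with Cthrc1, and 2418 CPM against 2173 and 2219 CPM after repetitive dosing. Acta2, the smooth muscle actin gene of MyoFBs, stood at 1488 CPM against 199 and 778 in the single-dose library and at 623 CPM against 120 and 290 in the repetitive library. It was found in 18 of 21 and 19 of 30 cycling FBs, and in 30.3% and 12.8% of the shallower barcodes with at least 2 Ptprc UMIs. Of the UMIs in the cycling FBs of its library, the barcode with the most UMIs, 97492, held 50.3% for Acta2, 60.6% for Tagln and 95.9% for Cnn1. Without that barcode the median of the list was 0.51, with FB barcodes that held at most 2 UMIs of immune lists it was 0.14, and without the highest barcode Acta2 stood at 902 and 452 CPM. Acta2 was thus above both non-cycling groups also without its highest barcode, whereas Cnn1, the calponin of smooth muscle, was then at 4.52 CPM in the single-dose library, against 17.8 CPM in FBs with Cthrc1.

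**Figure D5:**
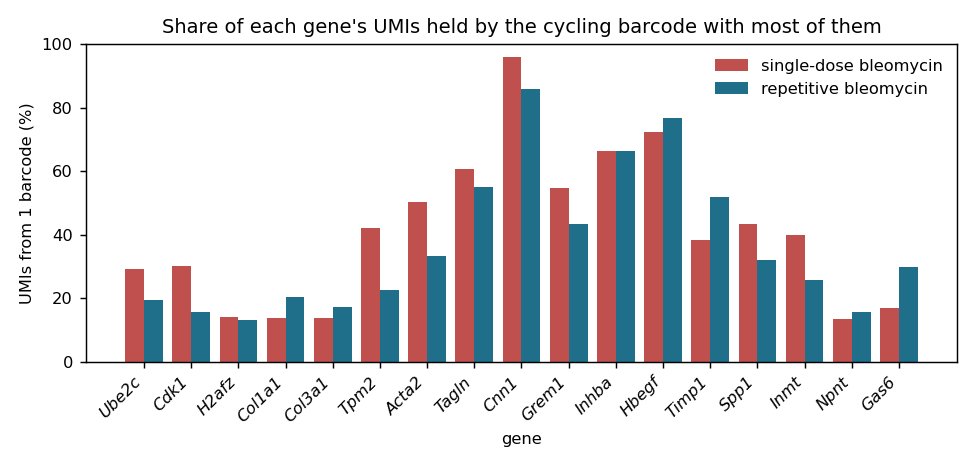
Share of each gene's UMIs in the cycling FBs that came from the single barcode with most of them (percent, vertical axis), for 17 genes, with single-dose bleomycin in red and repetitive bleomycin in blue. Cell cycle and collagen genes such as H2afz (14.1% and 13.1%) and Col1a1 (13.8% and 20.5%) were spread over barcodes, whereas Cnn1 (95.9% and 85.7%) and Hbegf (72.2% and 76.8%) came mostly from 1.

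Of the growth factor genes, Inhba and Hbegf were spread unevenly. Inhba, the activin A subunit, stood at 148 CPM against 8.82 and 82.5 in the single-dose library. In the repetitive library it stood at 357 CPM against 11.7 and 146. But Inhba was found in 5 of 21 and 8 of 30 cycling FBs, against 15.2% and 4.06% of the shallower barcodes with at least 2 Ptprc UMIs. In either library 66.2% of its UMIs in the cycling FBs came from 1 barcode. Hbegf, a ligand of the EGF receptor, was found in 5 and 6 barcodes, against 9.09% and 2.81% of the shallower ones with at least 2 Ptprc UMIs. By CPM Hbegf stood at 66.7 against 108 in those barcodes after a single dose, and at 119 against 4.70 after repetitive dosing. Gas6, the ligand of AXL, was lower, at 196 CPM against 614 and 488 and at 109 CPM against 722 and 583, and it stood at 232 and 288 CPM in barcodes with at least 2 Ptprc UMIs. Its ratio held against depth-matched barcodes without Cthrc1 (-1.30 and -2.78) and with it (-1.40 and -1.82). The receptor genes Axl (0.67 and 0.99) and Pdgfrb (-0.28 and -0.24) did not pass the limit. Over the list, 2 of 22 were higher and 2 lower after a single dose, and 7 of 23 were higher and 2 lower after repetitive dosing, so that all but the higher genes of the repetitive library were near the shares of all genes (10.6% and 7.56%, and 12.3% and 8.67%).

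Early response genes, which dissociation of tissue can also raise, were lower in the single-dose cycling FBs (9 of 16, median -1.08, where 7.56% of all genes were lower) and near 0 in the repetitive ones (1 of 16 higher and 1 lower, median -0.17, where 12.3% and 8.67% of all genes were higher and lower). Atf3, a stress transcription factor, stood at 5.56 CPM against 64.6 after a single dose and at 192 CPM against 244 after repetitive dosing. Ier2 was lower in both, at -1.15 and -1.25.

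How often the cycling FBs carried Cthrc1 relative to non-cycling FBs depended on how depth was treated. It was found in 8 of 21 single-dose cycling FBs (38.1%, 18.1 to 61.6) and 5 of 30 repetitive cycling FBs (16.7%, 5.64 to 34.7), against 18.1% and 6.70% of non-cycling FBs. Of depth-matched non-cycling FBs, 30 of 63 (47.6%, 34.9 to 60.6) and 18 of 90 (20%, 12.3 to 29.8) carried it, and both intervals overlapped those of the cycling FBs. Thinned to 2000 UMIs, the shares were 14.3% (3.05 to 36.3) against 6.46% of all non-cycling FBs and 6.67% (0.818 to 22.1) against 3.00%, and the intervals overlapped in both libraries. Thinned to 5000 UMIs they were 28.6% (11.3 to 52.2) against 11.7% (9.40 to 14.4) and 22.7% (7.82 to 45.4) against 5.39% (4.65 to 6.22), and the intervals did not overlap in the repetitive library. Each thinned set is a single random draw, whose own spread the intervals do not cover. In the repetitive draw all 5 cycling FBs with Cthrc1 kept a UMI of it, also those of 24034 and 19966 UMIs that held 1 each. The gap was therefore not read as a difference. By point values the share was larger than in all non-cycling FBs at 3 depths. It was below that of barcodes matched in UMIs at full depth, and no difference was read from either. Cthrc1 was also found in 6 of 33 (18.2%, 6.98 to 35.5) and 9 of 320 (2.81%, 1.29 to 5.27) barcodes with at least 2 Ptprc UMIs, at median depths of 9407 and 7046.5 UMIs. The share in single-dose non-cycling FBs lay inside the wide interval of the former. These barcodes can hold free RNA or FB RNA of shared droplets, and the part of free RNA in the Cthrc1 counts was not tested. Read the other way, 5.41% of single-dose FBs with Cthrc1 and 2.00% of those without were cycling, and 1.41% and 0.508% of repetitive FBs, at median depths of 15955 and 10984 and of 12691 and 8081 UMIs.

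By summed levels the cycling FBs with Cthrc1 held less of the LipoFB genes than those without it in both libraries, though not every barcode did. In the single-dose library, the 8 barcodes with Cthrc1 held 2624 CPM of LipoFB genes and the 13 without it 6997 CPM, and in the repetitive library the 5 with it held 3933 CPM and the 25 without it 6676 CPM. Fibrogenic genes stood at 13519 against 11061 CPM and at 23495 against 12466 CPM. After a single dose 922 of the 3946 fibrogenic UMIs of barcodes with Cthrc1 stood in 1 barcode that held 1 Cthrc1 and 511 Spp1 UMIs, and the level without it was 11435 CPM. With each barcode left out in turn, a step chosen after seeing the data, the single-dose levels ran from 11435 to 16122 CPM with Cthrc1 and from 9614 to 12657 CPM without it and so overlapped, and the repetitive ones from 21938 to 25536 CPM and from 10409 to 13120 CPM. LipoFB levels then ran from 2008 to 3385 CPM and from 6081 to 7403 CPM after a single dose. After repetitive dosing they ran from 2470 to 5257 CPM and from 6037 to 7349 CPM. These ranges are of sums and do not measure the spread between barcodes. Per barcode, LipoFB levels with and without Cthrc1 overlapped, at 1108 to 7836 and 752 to 15487 CPM after a single dose. After repetitive dosing they were 1171 to 11019 and 1289 to 21603 CPM. Of the 965 LipoFB UMIs of repetitive barcodes with Cthrc1, 502 stood in the barcode of 57882 UMIs. The barcodes with Cthrc1 were deeper, with median UMIs of 29048 against 16114 and of 57882 against 25347, and S phase levels were 1446 against 1364 CPM and 1855 against 2141 CPM. Fibrogenic genes were also higher in barcodes that did not lean to G2/M, at 20677 against 9506 CPM and at 22364 against 11563 CPM. Markers of mural cells (pericytes and smooth muscle) stood at 1076 CPM with and 64.6 CPM without Cthrc1 after a single dose, and at 232 and 230 CPM after repetitive dosing. Of the 314 mural UMIs of single-dose barcodes with Cthrc1, 175 stood in the barcode of 97492 UMIs, which also held 24 of the 71 Cthrc1 UMIs.

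All 12 FB markers were found in the cycling FBs of both libraries, from 54 to 745 UMIs a barcode after a single dose and from 7 to 1419 after repetitive dosing. The repetitive barcodes of 3655, 2105 and 2102 UMIs held 21, 10 and 7 FB marker UMIs, below their 102, 56 and 51 UMIs of myeloid markers. Over all cycling FBs, the 12 FB markers had median log2 ratios of -0.55 and -0.37 against non-cycling FBs without Cthrc1. Mfap4, a microfibril gene, was lowest at -2.23 and -2.18. Mesothelial markers held 25 and 23 UMIs, in 7 and 11 barcodes and at most 9 in 1, with 5 of 7 markers at 0 in either library, among them Msln, Upk3b, Lrrn4 and Muc16. T cell markers held 14 and 2 UMIs in all, and erythrocyte markers 1 and 0. Endothelial markers held 75 and 77 UMIs, in 16 of 21 and 21 of 30 barcodes, at 139 CPM against 151 in non-cycling FBs without Cthrc1 and at 96.7 CPM against 121, and Tek was the 1 gene past the limit (1.04, repetitive). Epithelial markers were in 18 of 21 and 15 of 30 barcodes, at 83.4 CPM against 110 and at 37.7 CPM against 132. B and plasma cell markers, mostly immunoglobulin, stood at 28.9 CPM against 1427 in the repetitive library, where 1 non-cycling barcode held 10251 of 68611 UMIs, and against depth-matched barcodes the ratio of the 1 gene compared was 0.046.

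Mural cell markers, those of pericytes and smooth muscle, held more UMIs in sum in the cycling FBs of both libraries. They held 611 CPM against 222 in non-cycling FBs without Cthrc1 after a single dose and 231 CPM against 159 after repetitive dosing. Of the compared markers 2 of 4 were higher and 1 lower after a single dose and 2 of 3 higher and 1 lower after repetitive dosing (medians 1.25 and 1.27), with Cspg4 highest at 2.27 and 3.24 and Kcnj8 lowest. Over all 9 markers with no filter on level, the single-dose median turned to -0.65. Against FBs with Cthrc1 none was higher and 0 of 4 and 2 of 4 were lower (medians -0.08 and -0.54). In the single-dose library 175 of 330 UMIs stood in the barcode of 97492 UMIs and 4 of 9 markers, Rgs5, Cox4i2, Higd1b and Myh11, were at 0, and in the repetitive library Higd1b and Myh11 were at 0 and no barcode held more than 30 of 184 UMIs. The part of mural cells in these values was not tested.

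Myeloid markers moved with the cycling FBs of the repetitive library. They held 246 UMIs there, 309 CPM against 168 in non-cycling FBs without Cthrc1, with 12 of 13 markers found and S100a9 at 0. Of these UMIs, 102, 56, 51 and 12 stood in 4 barcodes of 3655, 2105, 2102 and 2088 UMIs, which held 1 to 5 UMIs of Col1a1 and 4 to 21 UMIs of Spp1 each. The remaining 26 barcodes held at most 3 each, and without those 4 barcodes the median log2 ratio over the compared myeloid genes went from 1.11 on 3 genes to -3.80 on 1. In the single-dose library no cycling FB held more than 6 myeloid UMIs, and 85.2 CPM stood against 201 in non-cycling FBs without Cthrc1. Droplets with 2 cells were not removed, and their part in these barcodes was not tested.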

How the data were processed

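Pdgfra-GFP+ lung cells of single-dose and repetitive PBS and bleomycin mice were profiled in 4 single-cell RNA libraries of 3 pooled mice each, and 2 organoid libraries were used once for comparison. The deposited files hold raw UMI counts per gene and barcode, which per the labels the authors made with Cell Ranger 3.0.1 on mm10. Their own filters, integration with Seurat 3 and clusters were not used here. Totals ran from 7201081 to 68354458 UMIs per lung library.

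Barcodes were gated on counts as stated in the report, with no doublet caller and no other filter. Non-cycling FBs had 0 UMIs of Mki67 and Top2a, and those with 1 UMI entered neither group. UMIs were summed per group and scaled to CPM, 1 CPM was added before log2 ratios, and genes were compared where the mean CPM of both groups was at least 10. Intervals are exact 95% Poisson (CPM) or Clopper-Pearson (shares) intervals. Barcodes were thinned at random in a single draw (seed 1) to 2000 or 5000 UMIs, and the spread between draws was not measured. The fixed rule for named genes took the genes of the gate, the 4 cycling markers, the highest and lowest gene of each list with those needed to describe it, and the 8 highest and 8 lowest genes on no list, of which 1 is not reported here. The rule and the 37 gene lists were chosen with earlier results of these data known.

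The CPM step was tested on simulated data. The 50 genes made with a log2 ratio of 2 were read at a median of 1.97 in the run of 7884 genes for the single-dose library and of 1.93 in the run of 8895 genes for the repetitive library, and 1.90% and 0.563% of genes made equal passed the limit. Of genes made with log2 ratios of 1 and -1, 44% and 48.9% passed in the former run and 46% and 50% in the latter. Counts were drawn from a summed profile without differences between barcodes. The simulation thus covers counting error only and cannot show how often equal genes pass in the real groups, where 1 barcode can hold most UMIs of a gene. The alternatives tried were other added values, filters, gates, depths, scalings and depth-matched barcodes. Promoter windows came from RefSeq (GRCm38.p6). Analyses used Python 3.11.15, numpy 2.4.6, scipy 1.17.1, pandas 2.3.3 and matplotlib 3.10.9.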

Additional observations from a re-analysis of the deposited data

Results flagged for a closer look

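FB barcodes of the alveolar organoid libraries, in which sorted FBs were grown with type 2 epithelial cells for 14 days, lie outside the comparisons of the report. Under the same gate 353 of 2007 (17.6%) were cycling with FBs of normal lung and 527 of 3134 (16.8%) with FBs of bleomycin-treated lung, above the PBS lung libraries. Their FB barcodes were deeper, with medians of 46693 and 29022 UMIs, and thinned to 2000 UMIs the shares were 4.19% and 3.83%.

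Among the gene lists with medians of opposite sign in the 2 bleomycin libraries were the myeloid markers, with median log2 ratios of -1.30 (4 genes, all lower) after a single dose and 1.11 (3 genes) after repetitive dosing, and the interferon response genes, at -0.53 and 0.30. Endothelial markers (0.07 and -0.57) and growth factors and receptors (-0.25 and 0.02) also had opposite signs and lay near 0 in 1 of the libraries. The sign of the myeloid markers after repetitive dosing turned to -3.80 on 1 gene without 4 shallow barcodes, and to -3.07 on 1 gene in barcodes of at least 5000 UMIs, so both libraries then had the same sign. For the interferon genes 2 of 10 were lower after a single dose and 1 of 11 was higher after repetitive dosing, where Rsad2 stood at 1.65. Over all genes 7.56% were lower after a single dose and 12.3% higher after repetitive dosing, so the count after repetitive dosing was below that of all genes. The differences between the libraries were not tested, since each condition had 1 library.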

How the results depend on the processing

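No paired analysis was possible because each condition had 1 library and no result came from a test. For the same reason no replicate could be left out. The share of cycling FBs moved past its counting interval in 12 of 48 values. With at least 1 UMI of Mki67 and Top2a it was 4.77% and 1.65% after single-dose and repetitive bleomycin and 0.412% after repetitive PBS. With at least 2 UMIs of Birc5, Ube2c, Cdk1 and Ccnb2 it was 7.03% and 1.33% after bleomycin and 0.595% and 0.785% after single-dose and repetitive PBS. Thinned to 2000 UMIs it was 0.125% and 0.284%, and to 5000 UMIs, a depth chosen after seeing the data, 1.41% and 0.356%. With at most 2 UMIs of immune lists, a limit that leaves out deep barcodes, it was 0.982% (5 of 509) in the single-dose library. Against FBs without Cthrc1, adding 10 CPM gave medians of 1.58 and 1.84 for the S phase list and 3.10 and 3.63 for the G2/M list. The immune limit gave single-dose medians of 3.29 for S phase, -0.78 for fibrogenic and 0.14 for contractile genes, and leaving out the barcode with most UMIs, also chosen after seeing the data, gave 0.51 for contractile genes. At a mean CPM of at least 30, fewer genes were compared. Genes past the limit then numbered 426 higher and 269 lower of 4376 (single-dose) and 630 and 424 of 5516 (repetitive). With 10 CPM added they numbered 531 and 307 of 8112 and 730 and 493 of 9125. The main setting gave 863 and 613 of 8112 and 1118 and 791 of 9125. The share with Cthrc1 in the single-dose library was 14.3% at 2000 UMIs, and the share leaning to G2/M in the repetitive library was 36.7% with each list divided by its mean. Signs turned for markers of other cell types: mural markers without a filter (-0.65, single-dose), mesothelial markers with the immune limit (1.11, single-dose) or the mean over barcodes (0.92, repetitive), myeloid markers in repetitive barcodes of at least 5000 UMIs (-3.07) or, chosen after seeing the data, under 10 myeloid UMIs (-3.80), and B and plasma cell markers against depth-matched barcodes (0.046, repetitive). Unless stated, the causes were not tested. The other 102 medians of the main lists moved by less than 1.5 times, and of the medians of other lists and references 679 did so, 69 moved by more and 6 turned. Against FBs with Cthrc1, 8 of 16 counts of genes past the limit moved by more than 1.5 times. Thinning to 2000 UMIs left 1 and 15 cycling barcodes.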
